A study of Mus musculus with 4 samples.

Results

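S-phase-high NIH/3T3 cells were the cells of 1 fibroblast culture in which transcripts of DNA replication genes took the largest share of the RNA. NIH/3T3 is an immortalised mouse embryonic fibroblast line. For each cell, an S score was calculated as the percentage of its UMIs (unique molecular identifiers, each standing for 1 captured transcript) that came from 14 genes, namely Mcm2, Mcm4, Mcm5, Mcm6, Pcna, Tyms, Rrm1, Rrm2, Gins2, Dtl, Hells, Uhrf1, Clspn, and Pola1. A G2/M share was calculated in the same way from 6 genes of mitosis and its preparation, namely Top2a, Mki67, Cenpf, Tpx2, Nusap1, and Kif11. Cells were kept when they held 2000 UMIs or more, of which no more than 20% were mitochondrial. Of the 1775 NIH/3T3 cells kept, 266 were in the highest 15% by S score. After removal of the 9 of these that were also in the highest 15% by G2/M share (G2/M-high cells), 257 S-high cells remained, or 14.5% of the cells (95% exact binomial interval 12.9% to 16.2%). They were compared with the 888 S-low cells, the lowest 50% by S score.

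The study barcoded 3 untreated mouse lines in 1 split-pool CapSeq library: N2a neuroblastoma cells, NIH/3T3 fibroblasts, and mESCs of the E14TG2a line. NIH/3T3 and N2a cells were grown in serum-containing DMEM. The mESCs were grown on gelatin with serum, leukemia inhibitory factor, CHIR99021, and PD0325901. No protocol names a step that synchronised the cells. The labels give 1 sample per line, so no difference was tested. Intervals are at the 95% level and cover counting error only. The NIH/3T3 matrix held 13505027 UMIs, of which 11297005 were in the 1775 cells, 1471519 in the S-high cells, and 5593608 in the S-low cells. No barcode was shared among the cells of the 3 lines (0 barcodes). This was set by the design, since each line had its own first-round barcodes (BC1), so it does not measure mixing between lines.

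Before a cell copies its DNA, the origin recognition complex, Cdc6, and Cdt1 load the Mcm helicase onto origins in G1. Cyclin E and its kinase then help to start S phase, when Cdc45 and the GINS complex activate the helicase and the sliding clamp Pcna holds DNA polymerases at the fork. Transcription of many of these genes is driven by E2F factors, which are held back by the retinoblastoma family until the cell commits to division. Histone genes of the replication-dependent clusters are transcribed mainly during S phase, and their mRNAs end in a stem-loop in place of a poly(A) tail. Genes of the mitotic spindle and of cell division follow later, in G2 and M.

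The values that chose the cells are given as a description. The median S score was 0.415% in S-high cells and 0.170% in S-low cells. The S-high cells nearest to the limit had S scores of 0.364819%, 0.365297%, and 0.365542%, and the cells just outside it had 0.364446%, 0.364422%, and 0.363887%. There was thus no gap at the limit, and the S-high cells are the upper end of a continuous range, as the plot of both scores shows. The highest G2/M share of an S-high cell was 0.452%, just under the limit of 0.456%. Among the S-low cells, 191 of 888 (21.5%) were G2/M-high.

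**Figure D1:**
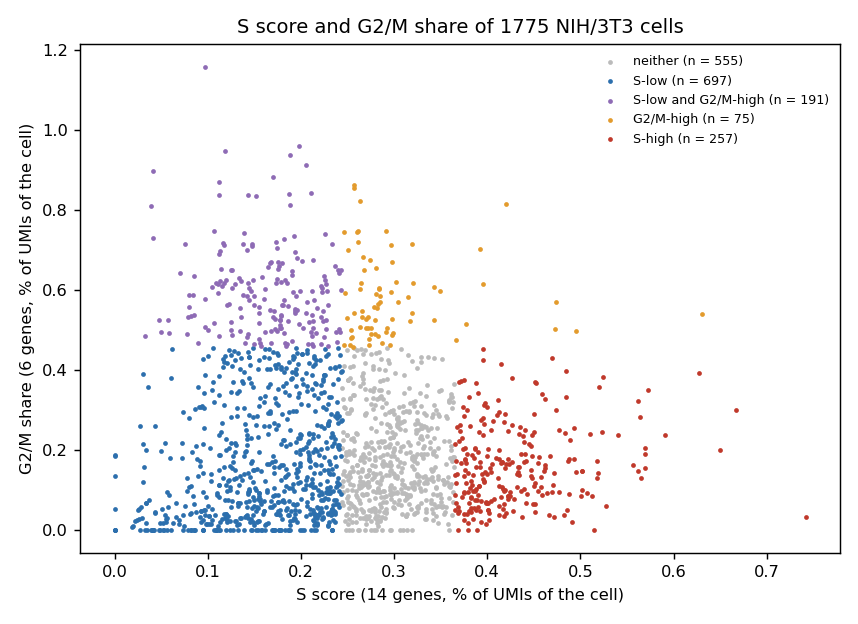
Each point is 1 of 1775 NIH/3T3 cells, with its S score (14 genes, percent of UMIs) on the x axis and its G2/M share (6 genes, percent of UMIs) on the y axis, coloured by group. The 257 S-high cells lie to the right of 0.365% without a gap from their neighbours, and the purple points are the 191 S-low cells that were also G2/M-high.

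A score of 14 genes rested on few transcripts per cell. S-high cells held a median of 22 UMIs of the 14 genes (lowest 8, highest 66), and S-low cells a median of 9 (0 to 52). When the cells were chosen on a random part of their UMIs, with equal chance for each UMI, and measured on the remaining UMIs, the ratio of the summed 14 genes between S-high and S-low cells was 1.64, against 2.53 on the same UMIs that chose them. Of the 257 S-high cells, 170 (66.1%) were chosen again on the random part. When every cell was first thinned to 2000 UMIs, 147 were chosen again. The depth of both groups was similar, with a median of 5093 UMIs (interquartile range 3330 to 7079) in S-high cells and 5390 (3516.5 to 7685.25) in S-low cells, a ratio of 0.945. The median mitochondrial share was 2.40% in S-high and 2.52% in S-low cells. After thinning to 2000 UMIs, the median was 1438 genes per S-high cell and 1421 per S-low cell.

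Levels were calculated as CPM, the UMIs of a gene per 1000000 UMIs, both summed over the cells of a group. Among the label's 3 markers, Hells, a chromatin remodeller of the SNF2 family, had 735 CPM (692 to 780) in S-high and 306 CPM (291 to 320) in S-low cells. Pcna had 491 CPM (456 to 528) and 182 CPM (171 to 193). Mcm5, a subunit of the helicase ring, had 190 CPM (168 to 213) and 81.3 CPM (74.0 to 89.2). After thinning, at least 1 Hells UMI was found in 82.1% of S-high and 46.7% of S-low cells, so the marker was not limited to S-high cells. Pcna was found in 64.2% and 30.7%, and Mcm5 in 27.2% and 14.4%. For comparison, the mESC gene Zfp42 was found in 0 of 257 and 0.113% of 888 cells, Dppa5a in 1.95% and 1.91%, and the N2a gene Hand2 in 0.778% and 0.450%. The other score genes ranged from Rrm1, the large subunit of ribonucleotide reductase, at 1.74 times its S-low level to Clspn, the checkpoint mediator claspin, at 3.66 times. On the UMIs not used for choosing, the 14 ratios ranged from 1.28 for Rrm1 to 2.64 for Clspn. Of the G2/M score genes, which the rule also used, Cenpf was at 0.17 times and Top2a at 0.78 times the S-low level. When G2/M-high cells were left out of the S-low cells, Cenpf was at 0.36 times and Top2a at 1.37 times.

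Promoter sequences of the 3 markers are shown together with those of Cdc6 and Dscc1, the genes with the highest ratios among the licensing and the fork genes described next. They are the 250 bases before the start of the Ensembl canonical transcript in GENCODE M39 on GRCm39, written 5′ to 3′ on the strand of the gene, and were shortened to 130 bases for Cdc6, where another transcript starts earlier. Capitals mark matches to TTTCCCGC or TTTGGCGC, a pair of core forms of the E2F site searched on both strands. Mcm5 lies at chr8:75835890-75836139 on the plus strand, Pcna at chr2:132095235-132095484 on the minus strand, Hells at chr19:38919109-38919358 on the plus strand, Cdc6 at chr11:98798377-98798506 on the plus strand, and Dscc1 at chr15:54953893-54954142 on the minus strand. The Pcna, Hells, and Dscc1 stretches overlap the long noncoding genes AV099323, Gm59351, and Gm41325, each on the other strand, and the Mcm5 and Cdc6 stretches overlap no other gene.
Mcm5: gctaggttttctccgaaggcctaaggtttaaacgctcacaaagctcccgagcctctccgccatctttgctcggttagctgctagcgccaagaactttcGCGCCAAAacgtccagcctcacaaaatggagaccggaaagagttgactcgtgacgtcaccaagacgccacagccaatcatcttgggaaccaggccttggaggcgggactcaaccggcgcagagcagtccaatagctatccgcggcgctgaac
Pcna: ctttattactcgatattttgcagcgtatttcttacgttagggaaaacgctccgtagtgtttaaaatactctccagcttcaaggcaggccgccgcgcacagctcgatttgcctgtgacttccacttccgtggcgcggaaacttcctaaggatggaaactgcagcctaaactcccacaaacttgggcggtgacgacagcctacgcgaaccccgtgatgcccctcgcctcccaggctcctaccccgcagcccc
Hells: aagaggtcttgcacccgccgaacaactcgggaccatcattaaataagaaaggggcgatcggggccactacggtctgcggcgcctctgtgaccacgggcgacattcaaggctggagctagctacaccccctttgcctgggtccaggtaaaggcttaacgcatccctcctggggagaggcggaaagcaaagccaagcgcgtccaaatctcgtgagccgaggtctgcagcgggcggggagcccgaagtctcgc
Cdc6: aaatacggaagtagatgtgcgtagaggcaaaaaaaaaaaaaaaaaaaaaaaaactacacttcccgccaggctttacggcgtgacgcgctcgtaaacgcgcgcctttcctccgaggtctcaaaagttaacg
Dscc1: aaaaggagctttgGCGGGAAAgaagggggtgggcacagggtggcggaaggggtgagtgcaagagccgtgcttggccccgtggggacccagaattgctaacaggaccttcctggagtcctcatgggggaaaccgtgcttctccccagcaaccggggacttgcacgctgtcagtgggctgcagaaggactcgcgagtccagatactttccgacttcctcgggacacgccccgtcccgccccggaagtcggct
Mcm5 held 1 match to TTTGGCGC, from 152 to 145 bases before the start, and Dscc1 held 1 match to TTTCCCGC, from 237 to 230 bases before it, both on the strand opposite to the gene. In the Pcna, Hells, and Cdc6 stretches, these letters were not found.

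Outside the 20 genes of the rule, 7470 genes had at least 20 CPM over all NIH/3T3 cells. Of these, 161 (2.16%) were at least 1.5 times higher in S-high cells and 182 (2.44%) were at least 1.5 times lower, and the median ratio was 1.00. The Poisson intervals of both groups were apart for 126 of the 161 and for 136 of the 182. At least 2-fold differences were found for 33 higher and 50 lower genes. Of the higher genes, 62 belonged to gene lists drawn up for this comparison and 99 did not. The shares of 2.16% and 2.44% are the background for the counts that follow.

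Genes that license origins and activate the helicase were higher as a group. Of 29 listed genes, 28 reached 20 CPM, 12 of them were at least 1.5 times higher and 1 was lower, with a median ratio of 1.44. Cdc6, the ATPase that loads the helicase, had 116 CPM (99.4 to 135) in S-high and 37.2 CPM (32.3 to 42.6) in S-low cells, a ratio of 3.13. After thinning, Cdc6 was found in 19.8% of S-high and 7.32% of S-low cells. The helicase subunits Mcm3 and Mcm7, which were not in the score, were at 1.65 and 1.49 times the S-low level. Orc2 of the origin recognition complex had 247 CPM (223 to 274) and 206 CPM (195 to 219), a ratio of 1.20. Named after their values were seen, Cdc45 (2.34), Wdhd1 (2.09), Tipin (1.99), and Mcm10 (1.92), which act at or with the active helicase, were among the 12 higher genes, as was Orc6 of the origin recognition complex (1.56). Dbf4, the activating subunit of the Cdc7 kinase, went the other way, with 93.8 CPM (78.8 to 111) in S-high and 162 CPM (151 to 173) in S-low cells, a ratio of 0.58. When G2/M-high cells were left out of the S-low cells, the ratio of Dbf4 was 0.79.

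All 36 listed genes of the polymerases and the replication fork reached 20 CPM, and 16 of them were at least 1.5 times higher and 0 lower, with a median ratio of 1.39. Dscc1, a subunit of a clamp loader that acts in cohesion, had 48.9 CPM (38.3 to 61.6) in S-high and 16.8 CPM (13.6 to 20.6) in S-low cells, a ratio of 2.91. Pclaf, a Pcna-binding factor, had 344 CPM (315 to 375) and 215 CPM (203 to 227), a ratio of 1.60. The same list held genes with no such difference. Ssrp1, a subunit of the histone chaperone FACT, was at 1.01 times, Top1, a topoisomerase used in transcription as well, at 0.91 times, and Rnaseh2c, a subunit of ribonuclease H2, at 0.79 times the S-low level, each with overlapping intervals. Named after their values were seen, Atad5, which unloads Pcna, was at 2.71 times, the primase subunit Prim2 at 2.30, the flap nuclease Fen1 at 2.04, the histone chaperone subunit Chaf1a at 2.04, and DNA ligase Lig1 at 1.82.

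Genes of nucleotide supply differed less. Of 21 listed genes, all at 20 CPM or more, 2 were at least 1.5 times higher and 0 lower, with a median ratio of 1.19. Deoxycytidine kinase, Dck, had 53.7 CPM (42.5 to 66.9) in S-high and 28.8 CPM (24.5 to 33.6) in S-low cells, a ratio of 1.87. The purine enzyme Paics was at 1.23 times and the nucleoside diphosphate kinases Nme1 and Nme2 at 1.17 and 1.01 times the S-low level. Rrm2b, the p53-induced subunit of ribonucleotide reductase, was at 0.79 times, with overlapping intervals. Summed over the licensing, fork, and nucleotide lists, the level was 10970 CPM (10802 to 11141) in S-high and 8370 CPM (8294 to 8446) in S-low cells, a ratio of 1.31 (1.29 to 1.33). The sum was higher in S-high cells at 32 of 32 BC1 sequences, the barcodes of the wells in which the cells were first labelled, with ratios from 1.13 to 1.56. Each BC1 sequence held between 3 and 13 S-high cells, or 4.48% to 23.3% of its cells, so the S-high cells did not come from a few wells.

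Within the E2F network and the regulators of the G1/S transition, cyclin E stood out. Ccne2 had 111 CPM (94.4 to 129) in S-high and 27.4 CPM (23.2 to 32.1) in S-low cells, a ratio of 4.05, the highest of all listed genes at 20 CPM or more. After thinning, Ccne2 was found in 20.2% of S-high and 4.50% of S-low cells, and in most S-high cells it was therefore not detected at this depth. Ccne2 overlaps Ints8 on the other strand, and the strand setting of the counting is not given in the sources used here. Of 28 list genes at 20 CPM or more, 9 were at least 1.5 times higher and 1 lower, with a median ratio of 1.31. The others past 1.5, named after their values were seen, were Ccne1 (2.55), the repressors E2f7 (2.17) and E2f8 (1.85), the phosphatase Cdc25a (2.04), the activator E2f1 (1.80), the ubiquitin ligase subunit Skp2 (1.76), the histone stem-loop binding protein Slbp (1.66), and Cdk2 (1.53). The D-type cyclins and their kinase Cdk4, which act earlier in G1, had ratios of 1.00 for Ccnd1, 1.05 for Ccnd2, 1.49 for Ccnd3, and 1.10 for Cdk4, each with overlapping intervals. Ccnd3 was the least abundant of these, with 59 UMIs in S-high cells, or 40.1 CPM (30.5 to 51.7), against 27.0 CPM (22.9 to 31.7). Rbl2, the retinoblastoma family member p130, had 19.0 CPM (12.6 to 27.5) and 31.5 CPM (27.0 to 36.5), a ratio of 0.60 with overlapping intervals.

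Cell cycle inhibitors and targets of p53 gave 0 of 11 genes past 1.5 in either direction, with a median ratio of 0.89. Summed over all 20 listed genes, the ratio was 0.90 (0.85 to 0.95). Cdkn1b, the inhibitor p27, had 37.4 CPM (28.2 to 48.6) in S-high and 55.2 CPM (49.3 to 61.8) in S-low cells, a ratio of 0.68, and cyclin G1, Ccng1, had a ratio of 0.68 as well. The p53 gene Trp53 was at 1.00, Btg1 at 0.90, and the stress gene Gadd45b at 1.39 times the S-low level.

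DNA repair and checkpoint genes were higher as a group as well. Of 40 listed genes, 35 reached 20 CPM, and 12 of these were at least 1.5 times higher and 0 lower, with a median ratio of 1.42. Rad51ap1, a factor of homologous recombination, had 65.2 CPM (52.8 to 79.7) in S-high and 27.5 CPM (23.4 to 32.2) in S-low cells, a ratio of 2.37. Exo1 (2.23), Brca1 (2.21), Bard1 (1.95), and Fancd2 (1.90), named after their values were seen, all serve homologous recombination or crosslink repair. Rad18, which modifies Pcna at stalled forks, was at 1.45 and the break sensor Rad50 at 1.22 times the S-low level. Rad21, a subunit of the cohesin ring, had 350 CPM (320 to 382) and 434 CPM (417 to 451), a ratio of 0.81. In the cohesin list itself, 1 of 12 genes was past 1.5, Cdca5 (sororin) at 1.55, while the loader Nipbl was at 0.96 and its partner Mau2 at 0.87, and the ring-associated Stag1 and Pds5b were at 1.07 and 1.12. Among 25 genes of chromatin copying and nuclear structure, 1 was past 1.5, the histone acetyltransferase Hat1 with 179 CPM (158 to 202) against 111 CPM (103 to 121), a ratio of 1.61. The heterochromatin protein Cbx5 was at 1.16 times, and the high-mobility-group genes Hmgb1, Hmgb2, and Hmgb3 were at 0.99, 0.89, and 0.70 times the S-low level. Without the G2/M-high S-low cells, Hmgb2 was on the other side of 1, at 1.09 times, as was Hmgb1 at 1.01 times.

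**Figure D2:**
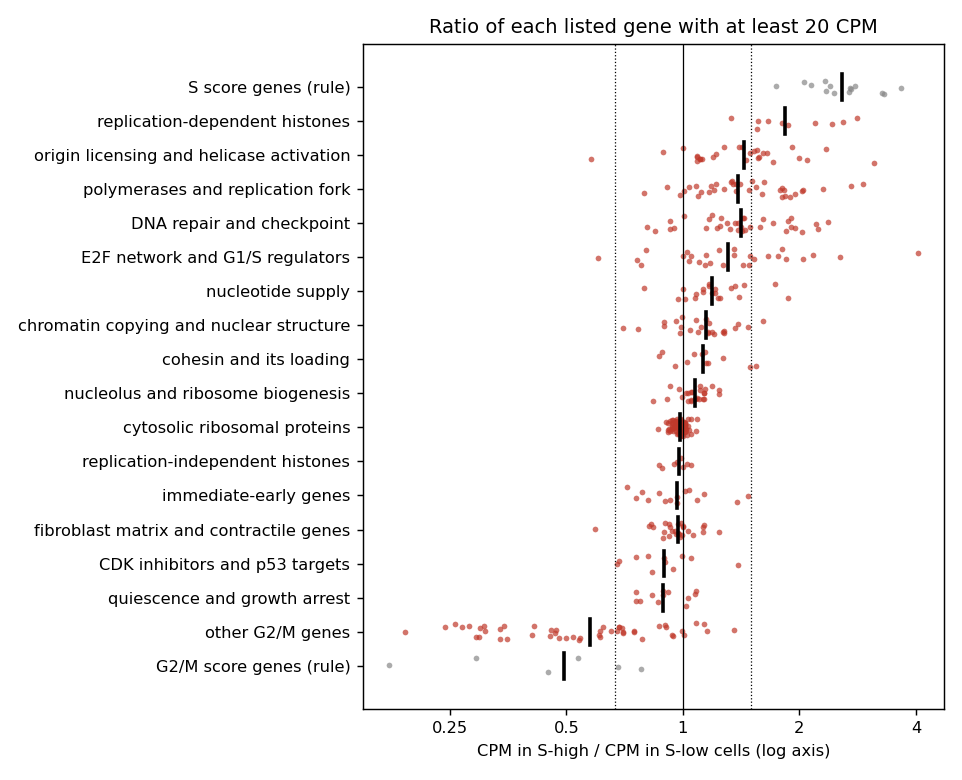
Each point is a gene with at least 20 CPM, placed by its ratio of CPM in S-high over S-low cells (log axis), black bars are list medians, and dotted lines mark 1.5 and its inverse. The licensing, fork, repair, and histone genes lie mostly to the right of 1, the other G2/M genes to the left, and the genes in grey, which the rule used, are shown as a description.

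Transcripts of the replication-dependent histones, none of which entered the score, were higher in S-high cells. Their 63 genes had 2661 CPM (2578 to 2746) in S-high and 1322 CPM (1292 to 1353) in S-low cells, a ratio of 2.01 (1.94 to 2.09). Of the 10 genes at 20 CPM or more, 9 were at least 1.5 times higher, with a median ratio of 1.84. The linker histone H1f5 had 837 CPM (791 to 885) and 323 CPM (309 to 339), a ratio of 2.59, H1f4 was at 1.87 times, and H4c4 had 620 CPM (580 to 661) and 397 CPM (381 to 414), a ratio of 1.56. H2ac15 had a ratio of 2.82 and H3c6 one of 1.33. Copies of some of these genes are nearly identical, and H4c4, H1f4, H1f5, and H2ac15 overlap other annotated genes, so single values are less certain. H1f5, H4c4, and H1f4 (370 CPM in S-high cells) hold much of the sum, so the sum shares this limit. The RNA is labelled as polyA RNA, and how these transcripts were captured was not tested. The 9 replication-independent histone genes, such as H3f3b at 1.00 and H2az1 at 0.95 times the S-low level, gave 0 of 8 genes past 1.5 and a median ratio of 0.98. Their summed ratio was 0.962 (0.927 to 0.997).

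Histone transcripts were unevenly spread among the S-high cells. Their median share of the UMIs of a cell was 0.272% in S-high and 0.0404% in S-low cells. After thinning to 2000 UMIs, at least 4 histone UMIs were found in 152 of 257 S-high cells (59.1%, 52.9% to 65.2%), in 212 of 888 S-low cells (23.9%, 21.1% to 26.8%), and in 94 of 266 G2/M-high cells (35.3%, 29.6% to 41.4%). No histone UMI was found in 36 of 257 S-high and 371 of 888 S-low cells after thinning. Of all 630 cells with at least 4 histone UMIs, 24.1% were S-high, against 14.5% of all cells kept.

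**Figure D3:**
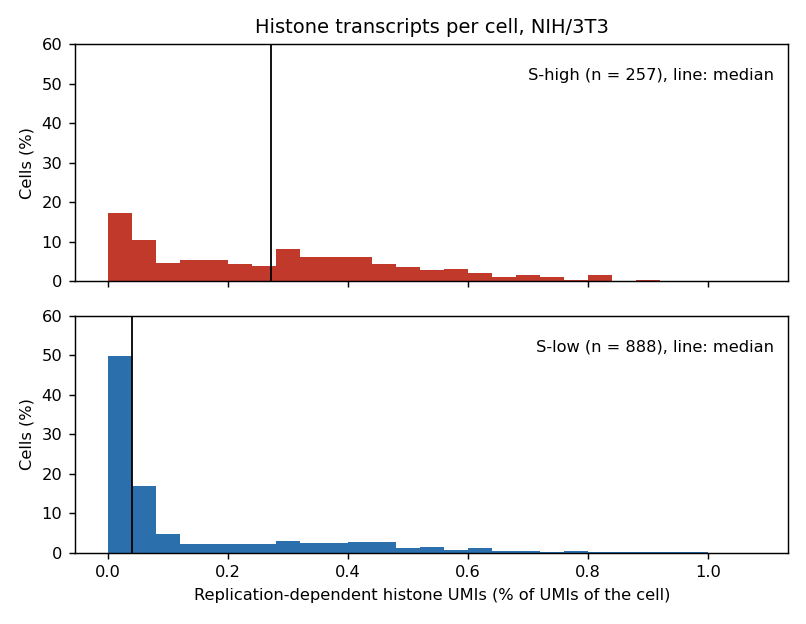
Histograms of the share of replication-dependent histone UMIs per cell (x axis, percent of the UMIs of the cell; y axis, percent of the cells of the group) for 257 S-high and 888 S-low cells, with a line at each median. Both groups span a similar range, from 0 to 0.965% in S-low and 0.897% in S-high cells, but more of the S-low cells lie next to 0, with a median of 0.0404% against 0.272%.

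Splitting the S-high cells at their median histone share gave 128 histone-rich and 129 histone-poor cells, with 4327 and 976 CPM of histones by this choice. The summed 14 score genes, which the rule used, had overlapping intervals (4327 CPM, 4178 to 4479, and 4093 CPM, 3948 to 4242), but Dtl among them did not (161 CPM, 133 to 192, and 245 CPM, 210 to 283). Histone-rich cells had more of the other G2/M genes, with 5138 CPM (4976 to 5304) against 3982 CPM (3839 to 4130). The G2/M score genes, which the rule used, had 1922 CPM (1823 to 2024) in histone-rich and 1233 CPM (1154 to 1316) in histone-poor cells. Cyclin A, Ccna2, had 181 CPM (152 to 214) in histone-rich and 119 CPM (95.3 to 147) in histone-poor cells. Quiescence and growth-arrest genes were lower in histone-rich cells, with 1124 CPM (1049 to 1203) against 1397 CPM (1313 to 1486). Ccne2 had 116 CPM (93.0 to 144) and 105 CPM (83.1 to 132), and Cdc6 had 108 CPM (85.7 to 135) and 124 CPM (100.2 to 153), both with overlapping intervals. Other lists also stood apart between these cells. Mitochondrially encoded genes had 23783 CPM (23432 to 24137) in histone-rich and 27607 CPM (27228 to 27990) in histone-poor cells. Cytosolic ribosomal protein genes had 94322 CPM (93624 to 95024) and 85600 CPM (84931 to 86274), and fork genes 4575 CPM (4423 to 4732) and 4145 CPM (3999 to 4295). Replication-independent histone genes had 2701 CPM (2584 to 2822) and 2397 CPM (2286 to 2511), and fibroblast matrix and contractile genes 13209 CPM (12948 to 13473) and 12368 CPM (12115 to 12626). The mESC markers had 11 UMIs, or 14.9 CPM (7.42 to 26.6), in histone-rich and 32 UMIs, or 43.7 CPM (29.9 to 61.8), in histone-poor cells. The median depth was 5427 UMIs in histone-rich and 4593 UMIs in histone-poor cells, and the part of depth, mitochondrial share, and mESC RNA in the histone split was not tested.

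Other G2/M genes, 51 genes of mitosis that the rule did not use, were lower as a group. Of 50 at 20 CPM or more, 30 were at least 1.5 times lower in S-high cells and 0 higher, with a median ratio of 0.58. Since S-high cells were chosen without G2/M-high cells while 21.5% of the S-low cells were G2/M-high, part of this was set by the rule. When the G2/M-high cells were also left out of the S-low cells, 19 genes were lower and 3 higher, with a median ratio of 0.78. The kinetochore motor Cenpe had 68.6 CPM (55.9 to 83.4) in S-high and 358 CPM (343 to 374) in S-low cells, a ratio of 0.19, and the spindle midzone protein Prc1 a ratio of 0.47. Without the G2/M-high S-low cells, these ratios were 0.28 for Cenpe and 0.80 for Prc1, the latter no longer 1.5 times lower. Smc4, a condensin subunit, had a ratio of 0.94 with overlapping intervals, and the motor Kif15 was higher, with 133 CPM (115 to 153) against 98.5 CPM (90.5 to 107), a ratio of 1.35. Against the reduced S-low cells, Smc4 was on the other side of 1, at 1.21 times, and Kif15 was at 1.67 times. Against the same cells, the score genes Top2a and Kif11 were at 1.37 and 1.17 times, where they had been at 0.78 and 0.68 times. Across the whole comparison, 192 genes (2.57%) were then higher and 149 (1.99%) lower, and 135 of the 161 and 121 of the 182 genes were the same.

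Genes outside the lists and the rule with the highest ratios were Lrr1, Tcf19, Fry, Slfn9, Polq, Zfp367, Wdr76, Ncapg2, Tssc4, and Zgrf1, from 4.13 for Lrr1 to 2.16 for Zgrf1. Lrr1, a ubiquitin ligase subunit that helps to unload the replicative helicase, had 42.8 CPM (32.9 to 54.8) in S-high and 10.4 CPM (7.87 to 13.4) in S-low cells. Slfn9, a member of the Schlafen family, had 382 CPM (351 to 415) and 136 CPM (126 to 146), a ratio of 2.81, and was found after thinning in 52.5% and 24.2% of the cells. Schlafen genes have close relatives. Tcf19, Fry, and Slfn9 overlap other annotated genes on the same strand, and Zfp367, Wdr76, Tssc4, and Zgrf1 on the opposite strand, so these values are less certain. Polq, the polymerase of microhomology-mediated end joining, was at 2.49 times and the condensin II subunit Ncapg2 at 2.25 times the S-low level. At the other end, Psrc1, Prr11, Cdkn3, Bora, Tent4a, Cenpl, Ubald2, Arhgap19, Aspm, and Pttg1 had ratios from 0.16 to 0.36. Without the G2/M-high S-low cells, they ranged from 0.22 for Psrc1 to 0.57 for Aspm. Psrc1, a spindle protein, had 9 UMIs in S-high cells, or 6.12 CPM (2.80 to 11.6), and 39.1 CPM (34.1 to 44.7) in S-low cells. Securin, Pttg1, which holds back the separation of sister chromatids until anaphase, had 44.2 CPM (34.1 to 56.3) and 122 CPM (113 to 131).

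The promoters of these genes were searched for 3 kinds of letters, on both strands and within 250 bases before the start. Either E2F form, TTTCCCGC or TTTGGCGC, was found for 13 of 157 higher genes (8.28%), for 4 of 174 lower genes (2.30%), for 200 of 7301 tested genes (2.74%), and for 352 of 21770 protein-coding genes (1.62%). By list, it was found for 4 of 14 score genes, 2 of 29 licensing genes, and 1 of 36 fork genes (2.78%). The nucleotide list had 1 of 21 and the other G2/M genes 2 of 50 (4.00%). The letters TTTGAA, the core of the CHR element of many G2/M genes, were found for 13.4% of the higher, 23.6% of the lower, 11.8% of the tested, and 15.6% of all genes, and for 36.0% of the other G2/M genes. CCAAT was found for 47.1%, 48.9%, 36.9%, and 36.5%. A match describes the letters only, and no binding was measured.

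Genes that mark the cell as a fibroblast differed little between the groups. Of 28 matrix and contractile genes at 20 CPM or more, 27 were within 1.5 times, with a median ratio of 0.97. Vim had 1838 CPM (1769 to 1908) in S-high and 1914 CPM (1878 to 1950) in S-low cells, and S100a4 and Lgals1 were at 0.97 and 1.00 times the S-low level. The exception was Bgn, the proteoglycan biglycan, with 23.8 CPM (16.6 to 33.1) and 40.0 CPM (35.0 to 45.6), a ratio of 0.59. Lists of the growth state also differed little. Immediate-early genes of serum response, quiescence genes, and genes of the nucleolus gave 0 of 15, 0 of 12, and 0 of 26 genes past 1.5, with median ratios of 0.97, 0.89, and 1.08. Counts of 0 are near the background shares for lists this short. Summed over all listed genes, the ratios were 0.98 (0.94 to 1.03), 0.92 (0.87 to 0.96), and 1.05 (1.03 to 1.07). Only the interval of the immediate-early genes spanned 1. The gene Npm1 of the nucleolar chaperone nucleophosmin was at 1.03, Gas5 at 0.92, Jun at 1.09, and Ier3 at 1.47 times the S-low level. The 78 ribosomal protein genes had a median ratio of 0.98 (0.86 to 1.08) and the 13 mitochondrially encoded genes one of 0.91.

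Markers of the other lines were low in both groups. The 13 mESC markers had 43 UMIs, or 29.2 CPM (21.1 to 39.4), in S-high cells and 39.7 CPM (34.6 to 45.3) in S-low cells, 11 of them with at least 1 UMI in S-high cells. Dppa5a led with 11 UMIs, and Pou5f1 and Utf1 were at 0. The 13 N2a markers had 27 UMIs, or 18.3 CPM (12.1 to 26.7), in S-high and 16.6 CPM (13.4 to 20.4) in S-low cells. Gm30835 led with 10 UMIs, and Th, Dbh, Chgb, Phox2a, Gata3, Isl1, and Clvs1 were at 0. No marker of either list reached 20 CPM (0 of 13 each).

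Across the whole range of the S score, the gene groups did not move in parallel. Cells were put into 10 equal groups by S score, and the levels are given relative to all cells. The sum of Ccne1, Ccne2, Cdc6, and E2f1, chosen with earlier values known, went from 0.31 (46 UMIs) in the lowest group to 1.89 in the highest. Fork genes went from 0.66 to 1.25 and licensing genes from 0.65 to 1.22. Histones went from 0.42 to 1.69, but not evenly, with 1.36 in group 8 and 1.22 in group 9. Other G2/M genes were at 0.77 in the lowest group, between 1.22 and 1.27 in groups 2 to 4, and at 0.69 and 0.71 in groups 9 and 10, so they were low at both ends. Fibroblast genes went from 1.07 to 0.99. The cells at both ends were shallower, with a median of 4135.5 UMIs in the lowest and 4462 in the highest group against 5302 to 6111 in the others, and the part of depth in these levels was not tested.

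**Figure D4:**
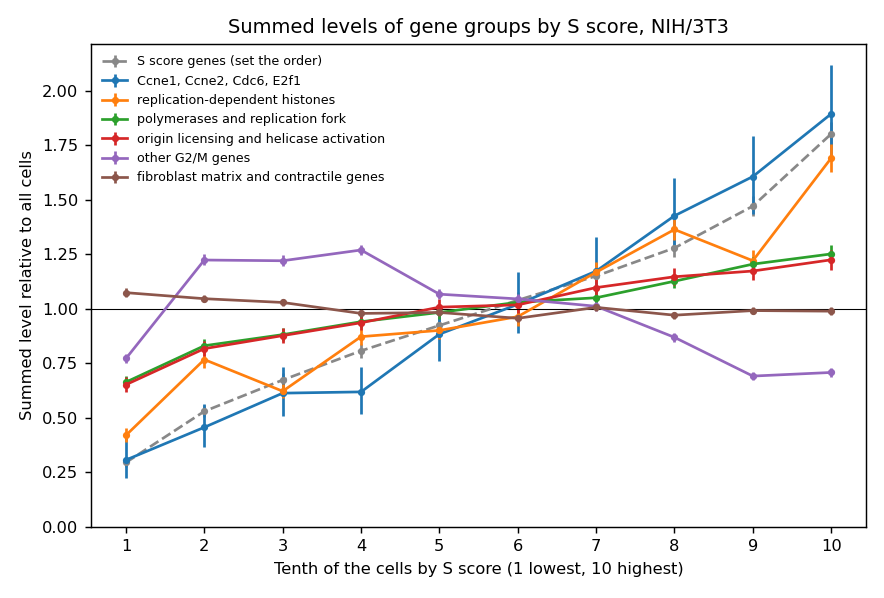
Summed level of each gene group relative to all 1775 cells (y axis) in 10 groups of cells ordered by S score (x axis, lowest to highest), with 95% Poisson intervals as bars. The cyclin E group climbs from 0.31 to 1.89, histones from 0.42 to 1.69, fork genes from 0.66 to 1.25, and other G2/M genes are low at both ends, while the dashed line shows the score genes that set the order.

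When the same rule was applied to the other lines, 288 of 2070 N2a cells and 257 of 1861 mESCs were S-high. The median S score of these cells was 0.486% in N2a and 0.587% in mESCs, against 0.137% and 0.310% in the S-low cells of each line. The summed score genes therefore differed by 2.53 times in NIH/3T3, between 3.59 times in N2a and 1.95 times in mESCs. Of the genes outside the rule, 3.94% were at least 1.5 times higher and 4.34% lower in N2a, and 1.15% higher and 3.26% lower in mESCs. On genes at 20 CPM in all 3 lines, the median ratio of the fork genes was 1.48 in NIH/3T3, 1.93 in N2a, and 1.19 in mESCs, and that of the repair genes 1.42, 1.79, and 1.13. The replication-dependent histones, with 6 genes at this minimum, had 2.03, 2.07, and 1.39. For the other G2/M genes, the median was lowest in NIH/3T3, at 0.61 against 0.74 in N2a and 0.85 in mESCs. Part of these G2/M ratios was set by the rule, which kept G2/M-high cells among the S-low cells. No value without those cells is given here for N2a and mESCs, so this order holds for the rule as applied. Cdc6 had ratios of 3.13 in NIH/3T3, 8.99 in N2a, and 1.67 in mESCs, and Ccne2 had 4.05, 5.89, and 1.85. Of the 130 genes higher in NIH/3T3 that reached 20 CPM in N2a, 86 were also higher there, or 66.2% of them and 38.7% of the 222 genes of N2a. With mESCs, 9 of 131 were shared, or 6.87% of the NIH/3T3 and 18.4% of the 49 mESC genes. With 1 sample per line, these differences between lines were not tested.

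**Figure D5:**
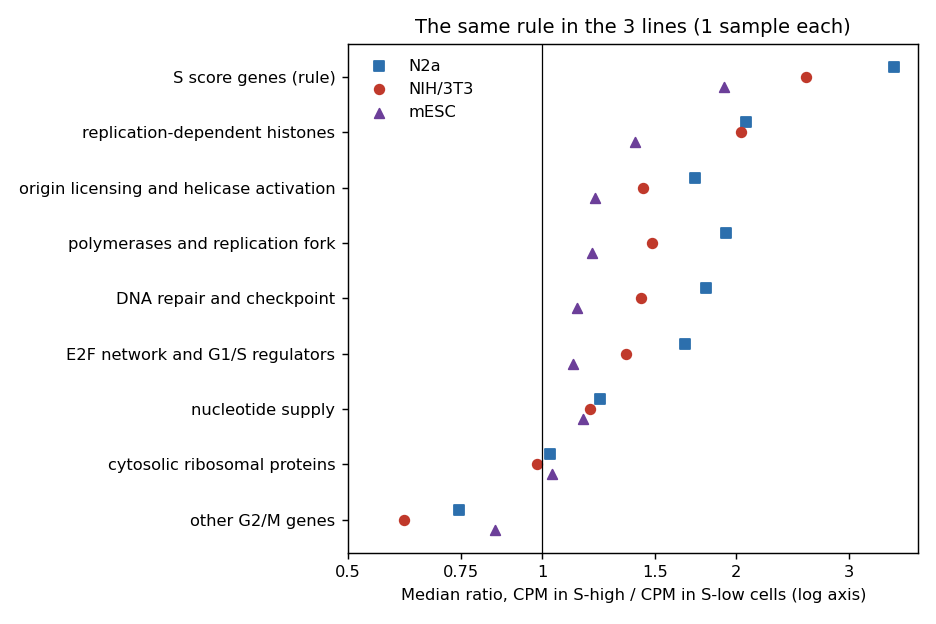
Median ratio of CPM in S-high over S-low cells (x axis, log scale) of each gene list on genes with at least 20 CPM in all 3 lines, with 1 sample per line and no test. NIH/3T3 lies between N2a and mESCs for the score, licensing, fork, repair, E2F, and histone lists, and is lowest for the other G2/M genes, at 0.61. For the E2F list, this order holds for the median only, since the summed ratio was 1.19 (1.15 to 1.22) in NIH/3T3 and 1.21 (1.17 to 1.25) in mESCs. For the other G2/M genes, part of the ratio was set by the rule, which kept G2/M-high cells among the S-low cells.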

How the data were processed

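The S-high group and all gene lists were chosen with earlier results of these data known. Per the labels and the methods, the authors converted reads with bcl2fastq 2.19.0, split them by BC1, trimmed them with Cutadapt 5.0, and aligned and counted them with STAR 2.7.11b on GRCm39 with GENCODE M30. What the authors deposited are unnormalised UMI counts for each gene and barcode, and no cells had been removed. The strand and feature settings of the counting are not given in the sources used here.

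Barcodes under 2000 UMIs or over 20% mitochondrial UMIs were left out here, since a score of 14 genes needs more depth than the minimum of 1000 UMIs of the study. Doublets were not called, and an alternative dropped the deepest 5% of cells. UMIs were summed per group and given as CPM with exact Poisson intervals, shares with exact binomial intervals, and ratios of sums with conditional binomial intervals. UMIs are molecules, but the intervals still cover counting error only. With 1 library there was no test, and a gene counted as higher or lower when its ratio was at least 1.5 or at most its inverse at 20 CPM or more. Named were the genes of the rule, the 3 genes with the most UMIs and the highest and lowest ratio per list, and the 10 highest and 10 lowest ratios outside the lists. Others are said to be named after their values were seen, with some exceptions. Ccna2, Ccnd3, Zfp42, Hand2, and the line markers without a UMI in S-high cells also lie outside these criteria. They are not marked in this way in the text, and their values are a description only. The levels of some listed genes are not reported here. The random part used for choosing took each UMI with equal chance. The calculation was tested on simulated data. Promoters and gene positions were read from the GRCm39 genome and GENCODE M39, which held 32953 of the 33565 gene identifiers. The scripts ran on matplotlib 3.10.9, pandas 2.3.3, scipy 1.17.1, numpy 2.4.6, and Python 3.11.15.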

Additional observations from a re-analysis of the deposited data

How the results depend on the processing

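Of the 5 main results, the ratio of median depths (0.945) ranged from 0.853 to 1.01, and the summed ratio stayed above 1 under every alternative run. No paired analysis was possible because each line had 1 sample. The member share followed the limit, at 9.69% for the highest 10% and 19.3% for the highest 20% by S score. The ratio of the summed licensing, fork, and nucleotide genes was 1.24 after scoring on thinned cells and 1.27 when cells were chosen on one random part of their UMIs and measured on the other, and the cause was not tested. The count of higher genes (161) was 305 and 247 in the first and last 16 BC1 sequences, 272 at a minimum of 10 CPM, 56 at 50 CPM, and 2220 with no minimum. It was 199 for the highest 10% by S score and 239 for the random parts. The count of lower genes (182) was 382 and 337 in the same parts of the BC1 sequences, 346, 77, and 1450 at the same minima, 292 for the highest 10% by S score, and 357 for the random parts. These settings, apart from the minima, left fewer cells or UMIs. Scoring on thinned cells gave smaller counts, with 108 higher and 138 lower genes. Without G2/M-high cells among the S-low cells, the ratios of Top2a (1.37), Kif11 (1.17), Hmgb2 (1.09), and H1f0 (1.03), with 95% intervals of the ratio below 1 at first, were on the other side of 1, as was Rpl36 (1.01) for the random parts. Of genes with an interval that spanned 1, Smc4 (1.21), H3f3b (1.04), Hmgb1 (1.01), H3f3a (1.01), Nme2 (0.98), and Gas7 (0.98) were also on the other side of 1 without G2/M-high cells. Not all such genes are named here. Of the 50 other G2/M genes at 20 CPM or more, 5 were above 1 at first and 15 without G2/M-high S-low cells. Ccna2 was lower in S-high cells at first, with 150 CPM against 198 CPM in S-low cells. Without the G2/M-high S-low cells, it was on the other side of 1, at 1.05 times. Of 56 named genes past 1.5, between 46 and 56 stayed past it under each of the 14 alternatives that change the cells, the score, or the scale, and 0 crossed 1. Leaving Hells out of the score was chosen after seeing the data and gave 186 higher and 197 lower genes. The depth leaves genes with few UMIs undecided, and a cell without a UMI of a gene cannot be called negative for it.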

Other observations

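On chromosome 14, 7 neighbouring genes that part of the NIH/3T3 cells express little, a list taken from an earlier look at these data, had 184 CPM (163 to 207) in S-high and 162 CPM (152 to 173) in S-low cells, a ratio of 1.14 (0.989 to 1.30). Ung, the uracil glycosylase that clears uracil from new DNA, lay under the minimum of 20 CPM over all cells and was named after its values were seen, with 35.3 CPM in S-high and 11.1 CPM in S-low cells, a ratio of 3.19.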
